A study of Mus musculus with 8 samples.

Results

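The genes described here are 5 components of the circadian clock whose transcripts, in most tissues, peak when those of Dbp, Nr1d1 and the Per genes are low: Arntl, Npas2, Clock, Nfil3 and Cry1. They were chosen by symbol, with no threshold on their values but with earlier results of these data known, and make up 5 of the 33,027 genes of a single-cell RNA sequencing study of mouse lung. Lungs came from Sftpc-CreERT2-mTmG mice of the C57BL/6 strain that had breathed cigarette smoke (CS) for 10 months (4 mice, named C2, C5, D2 and D5) or room air only (RA; 4 mice, F1, F3, M1 and M3). All 8 mice carried the tamoxifen-inducible Cre driven by the Sftpc promoter of alveolar type II (AT2) cells and the mTmG reporter, and all had received tamoxifen at 8 to 10 weeks of age. Lungs were taken 1 day after the last exposure and digested with warm enzymes, and CD45+ and CD45- cells were separated and remixed, so the share of immune cells was set by hand. The time of day at which each lung was taken is not given in the sources used here, and no group was sampled around the clock. The question was whether the 5 genes differed between CS and RA, and whether all cell types shared the same difference.

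Each cell's unique molecular identifiers (UMIs, which count captured transcripts) were scaled to 10,000, and the value of a mouse was the mean over its cells of 1 type, so n is the number of mice. After multiplets were left out, 40,074 cells remained, 20,330 of CS and 19,744 of RA mice, with 2,553 to 6,371 cells per mouse and a median of 4,254 to 6,473 UMIs per cell. Of 32 cell types, 22 had at least 20 cells in at least 3 mice of each group and 17 had them in every mouse. These 22 types held 11,260 UMIs of Arntl, 7,755 of Npas2, 21,572 of Clock, 11,368 of Nfil3 and 10,222 of Cry1, found in 18.1%, 8.47%, 34.4%, 16.9% and 17.7% of their cells. Of 63 listed markers, 54 were highest in the type they were listed for. In cells labelled mast cells Cpa3 was highest (6.71 transcripts per 10,000), but Kit was at 0.133 and Mcpt4 at 0. Of 40,909 cell barcodes, 197 occurred in more than 1 library. All 4 CS libraries went against their labelled sex: C2 and C5, labelled male, held Xist, and D2 and D5, labelled female, held Y-linked transcripts. By these transcripts each group held 2 female and 2 male mice, so exposure is not confounded with sex, although labelled and observed sex differ.

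In the clock, the proteins of Arntl (BMAL1) and of Clock or its paralogue Npas2 bind as pairs to E-boxes and switch on Per, Cry, Nr1d1, Nr1d2 and Dbp. Cry1 and Per proteins then block the pair. The NR1D1 and NR1D2 repressors and the ROR activators compete for ROR elements in Arntl, Npas2, Clock, Nfil3 and Cry1, and NFIL3 represses the D-box genes that DBP, TEF and HLF activate. In the lung the clock is best known from club cells of the airways, where loss of Arntl alters the recruitment of neutrophils.

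The genes lie on 5 chromosomes of GRCm38: Npas2 on chromosome 1 (39193731 to 39363236, plus strand), Clock on chromosome 5 (76209868 to 76304792, minus strand), Arntl on chromosome 7 (113207465 to 113314126, plus strand), Cry1 on chromosome 10 (85131700 to 85185064, minus strand) and Nfil3 on chromosome 13 (52967209 to 52981073, minus strand). All values below are of whole genes, spliced and unspliced reads together. The pseudogenes Gm3617 in Npas2 and Ube2n-ps1 in Clock lie on the strand of their host gene, as does Gm43658 in Clock, and Gm45355 lies antisense to Arntl, so that reads there could be split between genes. The RefSeq windows of 300 bases around the annotated starts of these genes (8 windows, 250 bases before and 50 after the start, GRCm38.p6) were searched on both strands for the E-box CACGTG, the ROR element cores TAGGTCA and TGGGTCA, and the D-boxes TTATGTAA and TTACGTAA. Shown are the stretches with a match, since these are the letters through which clock proteins are known to act, with the match in capitals and each read 5′ to 3′ along its gene.

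Arntl, chr7:113207529-113207558, plus strand, just after the second annotated start: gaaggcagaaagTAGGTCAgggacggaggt
Nfil3, chr13:52981034-52981063, minus strand, around the start: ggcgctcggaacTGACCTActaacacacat
Cry1, chr10:85185065-85185304, minus strand, before the start: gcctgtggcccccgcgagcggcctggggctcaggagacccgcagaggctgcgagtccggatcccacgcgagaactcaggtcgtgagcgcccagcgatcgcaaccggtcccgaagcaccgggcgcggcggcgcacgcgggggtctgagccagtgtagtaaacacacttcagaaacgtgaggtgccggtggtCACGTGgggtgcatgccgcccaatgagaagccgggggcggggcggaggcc

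TAGGTCA was found in 1 of the 2 Arntl windows and, on the opposite strand, in the Nfil3 window. It occurs in 2.61% of all 32,851 windows. CACGTG was found in Cry1 and occurs in 7.15% of all windows. The windows of Npas2 and Clock held none of the letters searched. TGGGTCA, TTATGTAA and TTACGTAA, found in no window of these genes, occur in 3.98%, 0.938% and 0.119% of all windows.

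Averaged over the 17 cell types found in every mouse, Arntl and Npas2 were the members with the lowest values in CS relative to RA, and neither passed the test over all genes. Arntl was at 0.249, 0.368, 0.316 and 0.360 transcripts per 10,000 in CS mice C2, C5, D2 and D5, and at 0.601, 0.485, 0.492 and 0.349 in RA mice F1, F3, M1 and M3. C2 was the lowest and F1 the highest, and the groups overlapped through RA mouse M3. Mean levels were 0.323 ± 0.0544 in CS and 0.482 ± 0.103 in RA (SD, n = 4 each), so that the CS mean was 0.671 times the RA mean. On the scale used for all tests, the mean over types of log2(transcripts per 10,000 + 1), the difference was -0.17 (limma over 14,858 genes, adjusted p = 0.0693, standard error 0.0490). This scale understates the change of genes with low values.

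Npas2, which stands in for Clock in the pair, was at 0.0751, 0.0670, 0.0875 and 0.0921 in the CS mice and at 0.197, 0.181, 0.156 and 0.105 in the RA mice, named in the same order. Every CS mouse was below every RA mouse. Mean levels were 0.0805 ± 0.0115 in CS and 0.160 ± 0.0402 in RA (SD, n = 4 each), so that CS mice had 0.504 times the RA level. This was -0.08 on the log2 scale (limma, adjusted p = 0.0533, standard error 0.0199). An exact two-sided permutation over the mice gave p = 0.0286, the smallest possible with 4 mice against 4. With genes found in at least 25% of cells, with labelled sex as a term, or without immune cell types, the limma adjusted p was 0.0395, 0.0439 and 0.0469. Labelled sex went against the transcripts in all 4 CS libraries, and with sex by transcripts as a term Npas2 did not pass. Over all alternatives p lay between 0.0286 (the unadjusted exact test) and 0.343. The lower mean of Npas2 rests in large part on goblet cells, where it was at 0.240 in CS and 0.972 in RA. Ciliated cells, the type with the next highest level, were at 0.561 in CS and 0.529 in RA. By sign, the estimate was lower in 15 of 22 types and higher in 7.

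The other members differed less. Clock was at 0.551, 0.650, 0.688 and 0.803 in CS mice and at 0.741, 0.689, 0.660 and 0.657 in RA mice, with a ratio of 0.980 (log2 difference -0.02, adjusted p = 0.828 from limma). The RA values lay inside the CS range. Nfil3, the D-box repressor, was at 0.5002, 0.567, 0.561 and 0.520 in CS mice and at 0.573, 0.572, 0.556 and 0.572 in RA mice, with a ratio of 0.945 (log2 difference -0.06, adjusted p = 0.112 from limma). These levels, in which the types with the most Nfil3 weigh most, overlapped, but the means of the log2 values did not (0.443 to 0.496 in CS, 0.510 to 0.583 in RA, exact two-sided permutation p = 0.0286). Cry1, the repressor, was at 0.292, 0.332, 0.343 and 0.290 in CS mice and at 0.380, 0.299, 0.312 and 0.290 in RA mice, with a ratio of 0.981 (log2 difference -0.01, adjusted p = 0.848 from limma).

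**Figure D1:**
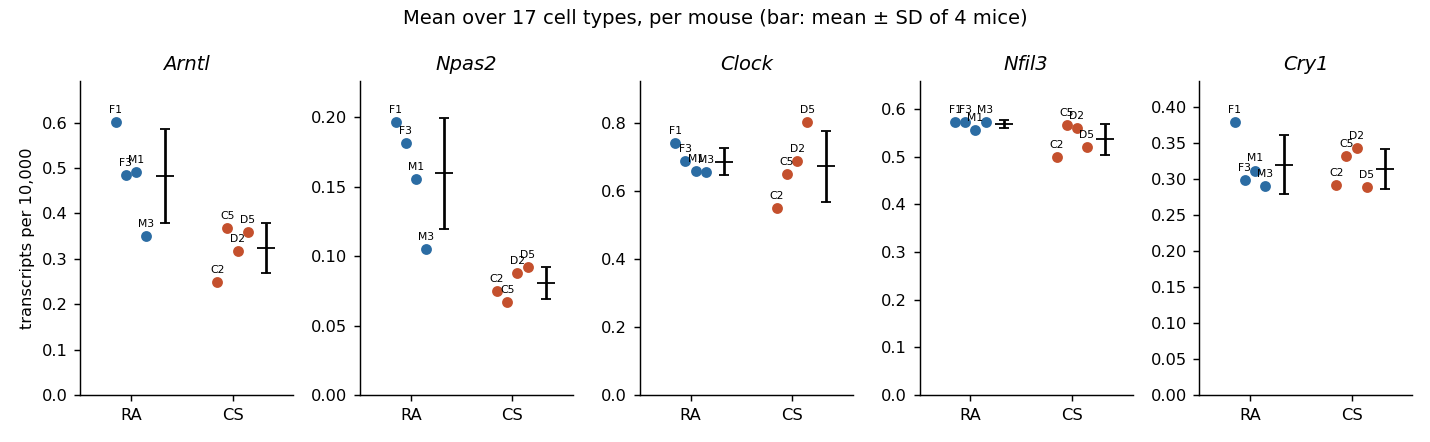
Transcripts per 10,000 of the 5 genes (y axis, from 0) in each of 4 RA and 4 CS mice (x axis), averaged over 17 cell types, with bars for mean ± SD. The CS mice lie below all RA mice for Npas2 (up to 0.0921 against 0.105 and above) and overlap with RA mouse M3 for Arntl, whereas Clock and Cry1 overlap throughout.

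All 5 estimates were lower in CS, and 3 of them (Arntl, Npas2 and Nfil3) had an unadjusted p under 0.05, which 28.1% of all genes had. None of the 5 passed the adjusted test, which called 364 of 14,858 genes (2.45%), with 0.942% of all genes lower and 1.51% higher in CS. On the log2 scale, 2 of the 5 (Npas2 and Nfil3) did not overlap between groups, against 6.24% of all genes that were lower without overlap. The median log2 difference of the 5 genes was -0.06 and that of all genes was 0.01. The mice were sequenced in 4 lanes, each with 1 CS and 1 RA mouse. On the log2 scale, Npas2 and Nfil3 were lower in the CS mouse of 4 of 4 lanes, Arntl and Clock of 3, and Cry1 of 2. Among the libraries with female sex-linked transcripts alone (2 against 2), the log2 difference was -0.26 for Arntl and -0.12 for Npas2, and among those with male transcripts -0.09 and -0.04.

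Within cell types, Arntl was lower in CS in all 14 epithelial, endothelial and mesenchymal types and in 7 of 8 immune types by the sign of the estimate. All types come from the same 8 mice, so signs counted over types are not independent. The share of all genes with such counts was not computed. The limma test called Arntl in 1 type, AT1 cells. AT1 cells are the flat cells of the gas exchange surface. There Arntl was at 0.0276, 0.0213, 0.0474 and 0.0650 in the CS mice and at 0.208, 0.0957, 0.253 and 0.147 in the RA mice, without overlap, which 5.17% of all genes in AT1 cells showed in this direction. The CS mean was 0.229 times the RA mean (log2 difference -0.18, limma adjusted p = 0.0294, standard error 0.0390), in a type in which 0.992% of genes were called lower. These values rest on few molecules: a CS mouse held between 2.94 and 15.7 Arntl UMIs in its AT1 cells and an RA mouse between 7.83 and 38.6. With summed counts in place of the mean over cells the log2 difference was -0.11 (limma adjusted p = 0.135), which ended the call. The gene passed the 10% filter through RA alone, with 5.02% of AT1 cells of CS and 14.2% of RA mice holding a transcript. In the shallower cells labelled NG, which carry granulocyte markers, 0.957% of CS cells and 1.66% of RA cells held one. The median depth per AT1 cell was between 8,346 and 17,293 UMIs over the 8 mice.

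In 4 other types the Arntl values did not overlap, and none of these passed the test. In club cells, the secretory cells of the airway, Arntl was at 0.0680 to 0.0940 in CS and 0.187 to 0.355 in RA (adjusted p = 0.0819 from limma). In goblet cells, the mucus-producing cells, it was at 0.111 to 0.287 and 0.312 to 0.594 (adjusted p = 0.125 from limma). Arterial endothelial cells had 0.0266 to 0.243 in CS, on 1.98 to 24.7 UMIs per mouse, and 0.354 to 0.542 in RA (adjusted p = 0.0824 from limma), and venous endothelial cells 0.0597 to 0.424 and 0.498 to 1.204 (adjusted p = 0.144 from limma). The share of genes lower without overlap was 2.06%, 1.28%, 4.55% and 3.54% in these 4 types. General capillary (gCap) cells, the type with the most cells, had 0.0775, 0.182, 0.144 and 0.218 in CS mice and 0.508, 0.417, 0.368 and 0.177 in RA mice (adjusted p = 0.0521 from limma). The groups met only in RA mouse M3. In gCap and arterial endothelial cells, as in AT1 cells, Arntl passed the 10% filter through RA alone, the group in which it was higher. Club cells passed the test under 2 alternatives and gCap cells under 4, among them the fit without M3 (limma adjusted p = 0.0269).

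Lymphocytes held the most Arntl. T cells had 1.23, 1.86, 1.53 and 1.65 in CS mice and 1.34, 1.4998, 1.65 and 1.39 in RA mice, a ratio of 1.07, and were the only type of the 22 with a higher estimate in CS. B cells had 1.01 to 1.48 in CS and 1.21 to 1.51 in RA, a ratio of 0.946. Each CS mouse held between 126 and 249.4 Arntl UMIs in its T cells. Alveolar macrophages (ratio 0.936), classical monocytes (0.900) and non-classical monocytes (0.924) lay close to equal means, with overlapping values. Lymphatic endothelial cells had 0.247 to 0.471 in CS and 0.120 to 0.609 in RA, a ratio of 0.932, on 24 to 103 cells per mouse.

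**Figure D2:**
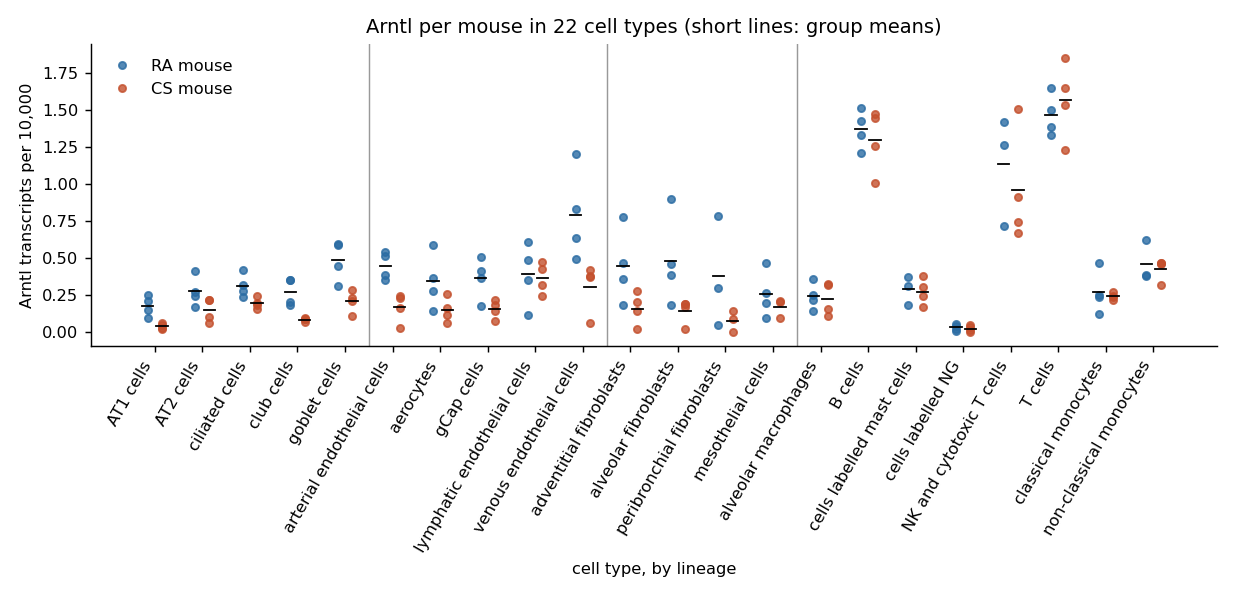
Arntl transcripts per 10,000 (y axis) in each mouse with at least 20 cells of a type, for 22 cell types grouped by lineage (x axis), RA in blue and CS in red, with short lines for group means. CS mice lie lower in most epithelial, endothelial and fibroblast types, and both groups mix in B, NK and T cells, where levels are highest.

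Npas2 was found in few types, and the limma test called it in goblet cells. It was at 0.194, 0.165, 0.270 and 0.329 there in the CS mice and at 0.606, 1.62, 0.925 and 0.738 in the RA mice. No CS mouse reached an RA mouse, and F3 stood highest. Mean levels were 0.240 ± 0.0744 in CS and 0.972 ± 0.450 in RA (SD, n = 4 each), so that CS goblet cells had 0.247 times the RA level (log2 difference -0.65, limma adjusted p = 0.0479, standard error 0.120). Only 0.0253% of genes were called lower in goblet cells. Goblet cells were few, with 23 to 137 per mouse, but deep, so that a CS mouse still held between 24.8 and 97.5 Npas2 UMIs and an RA mouse between 103 and 402. In ciliated cells, which move the mucus, Npas2 was at 0.590, 0.538, 0.520 and 0.599 in CS and at 0.535, 0.508, 0.559 and 0.513 in RA. These CS values were 1.06 times those of RA, with the groups overlapping. Adventitial fibroblasts had 0.0322 to 0.118 in CS and 0.0706 to 0.388 in RA (adjusted p = 0.107 from limma). By the sign of the estimate, Npas2 was lower in 13 of 14 non-immune types and 2 of 8 immune types. T cells, the immune type with the most Npas2, had 0.0146 to 0.129 in CS and 0.0886 to 0.238 in RA, and the others were at or near 0. Venous endothelial cells, with too few Npas2 transcripts for the test, had 0.00347 to 0.0251 in CS and 0.0468 to 0.102 in RA, on 0.996 to 5.97 UMIs in a CS mouse.

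Nfil3 was lower in all 14 non-immune types by the sign of the estimate and in 5 of 8 immune types. The limma test called it in ciliated cells, where it was at 0.136, 0.212, 0.147 and 0.110 in the CS mice and at 0.294, 0.245, 0.264 and 0.213 in the RA mice. The nearest pair, C5 and M3, lay almost at the same value. CS ciliated cells had 0.596 times the RA level (log2 difference -0.12, limma adjusted p = 0.0405, standard error 0.0292), in a type in which 1.91% of genes were called lower and 6.65% were lower without overlap. With the sequencing lane as a block the adjusted p was 0.0549. In goblet cells Nfil3 was at 0.0567 to 0.113 in CS and 0.142 to 0.217 in RA (adjusted p = 0.331 from limma). gCap cells, where too few cells held Nfil3 for the test, had 0.0147 to 0.0352 and 0.0712 to 0.195, on 4.95 to 25.5 UMIs in a CS mouse, and 11% of the genes tested there were lower without overlap. The opposite order was seen in classical monocytes, with 2.83, 3.25, 2.99 and 2.54 in CS mice and 1.76, 2.48, 2.22 and 2.37 in RA mice. The ratio was 1.31 (log2 difference 0.28, adjusted p = 0.413 from limma), and the groups did not overlap, which 3.74% of genes in these monocytes showed in that direction. No gene of 6,998 was called by limma in classical monocytes, and 10.2% had an unadjusted p under 0.05.

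Clock and Cry1 had no type that passed the test. Clock was lower in 11 of 14 non-immune and 4 of 8 immune types by the sign of the estimate. Its values did not overlap in adventitial fibroblasts, with 0.402 to 0.474 in CS and 0.496 to 0.631 in RA (adjusted p = 0.233 from limma), and 6.24% of genes there were lower without overlap. T cells had 0.654 to 1.12 in CS and 0.458 to 0.799 in RA, a ratio of 1.39 (adjusted p = 0.239 from limma), and NK and cytotoxic T cells had a ratio of 1.63. Cry1 was lowest relative to RA in goblet cells, at 0.0658, 0.0594, 0.0528 and 0.0514 in CS mice and at 0.248, 0.178, 0.187 and 0.175 in RA mice. These groups lay well apart, with a ratio of 0.291 (log2 difference -0.18, adjusted p = 0.0645 from limma). In T cells Cry1 was at 0.664 to 0.683 in CS and 0.318 to 0.618 in RA, a ratio of 1.26 without overlap (adjusted p = 0.324 from limma). Of all genes in these cells, 5.96% were higher in CS without overlap. Peribronchial fibroblasts, with 3 mice in each group, had 0.136 to 0.212 in CS and 0.228 to 0.363 in RA, on 1.97 to 4.96 UMIs in a CS mouse, and Cry1 passed the filter there through RA alone.

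**Figure D3:**
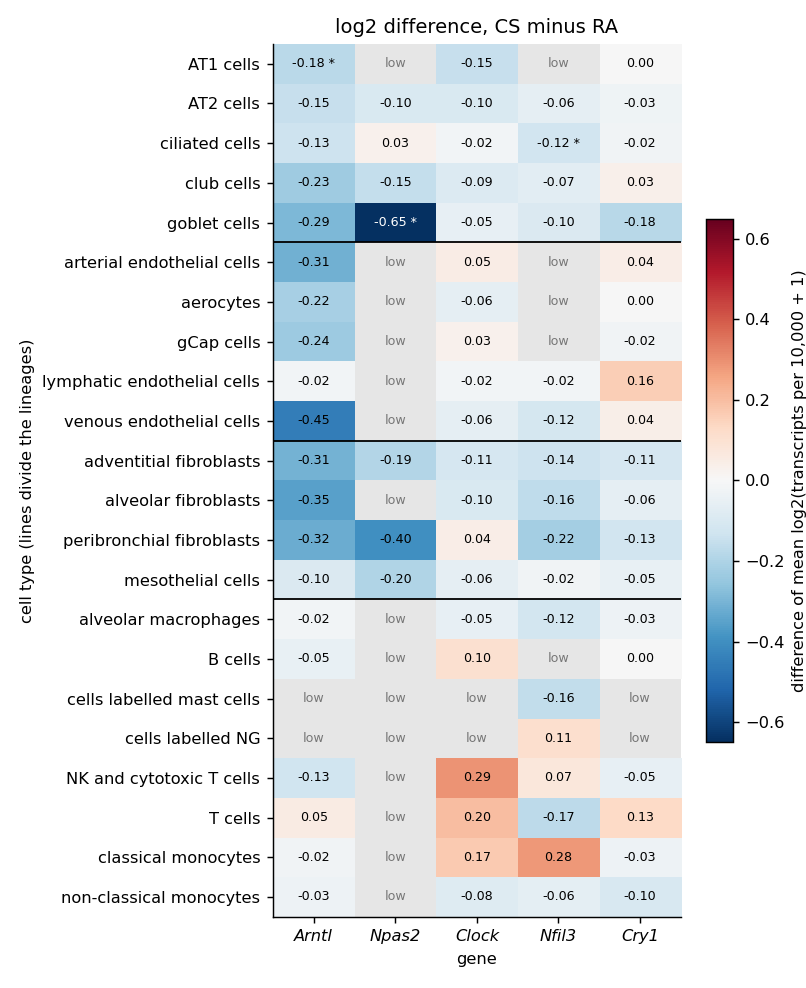
Difference between CS and RA in mean log2(transcripts per 10,000 + 1) for the 5 genes (x axis) in 22 cell types (y axis), blue where lower and red where higher in CS. A star marks an adjusted p under 0.05, "low" a gene found in under 10% of cells of both groups, and the Arntl column is blue in every non-immune type, down to -0.45 in venous endothelial cells.

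Over the 5 genes and 22 types, 84 combinations passed the filter on low values and 3 passed the test (Arntl in AT1, Npas2 in goblet and Nfil3 in ciliated cells). Over all genes and types, 1.23% of tests were called, and 0.518% were called lower in CS. A gene can pass this filter through RA alone, and this was so for Arntl in 6 types (AT1 cells with their call among them), Cry1 in 4, Npas2 in 3 (adventitial fibroblasts among them) and Nfil3 in 2, but not for Npas2 in goblet or Nfil3 in ciliated cells. Leaving out 1 mouse at a time ended the call for Arntl in AT1 cells in 6 of 8 cases (all but F3 and M3), for Npas2 in goblet cells in 6 (all but F1 and F3) and for Nfil3 in ciliated cells in 7 (all but C5). The log2 differences then ran from -0.21 to -0.14, from -0.74 to -0.50 and from -0.15 to -0.11, and the adjusted p over all alternatives from 0.0106 to 0.254, from 0.0167 to 0.341 and from 0.0168 to 0.1497.

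Whether all cell types shared 1 difference was tested for each of the 5 genes on the log2 scale used for all tests. On this scale an equal ratio gives a smaller difference where levels are low. Arntl, for example, had a ratio of 0.229 and a difference of -0.18 in AT1 cells, but 0.389 and -0.45 in venous endothelial cells. Whether the types shared 1 ratio was therefore not tested, and the order of departures depends on level too. The CS against RA difference of a type was set against that of the other 16 types in the same mice. Departures of the other clock genes are not given, so the result covers the 5 genes alone. None of 65 departures of the 5 genes passed limma's adjusted test, and 15 had an unadjusted p under 0.05. Over all genes and types, 0.591% passed and 12.1% had an unadjusted p under 0.05. The lowest adjusted p were those of Cry1 in goblet cells (departure -0.18, adjusted p = 0.0627), Npas2 in goblet cells (-0.60, 0.0722) and Npas2 in ciliated cells (0.12, 0.0778). Npas2 passed the filter in 7 of 22 types and was near 0 in most others, so that its departure in goblet cells nearly repeats the difference within goblet cells (-0.65). Under 5 of 18 alternatives 1 or 2 departures passed, each of them Npas2 or Cry1 in goblet cells or Npas2 in ciliated cells. For Arntl the estimates ranged from -0.29 in venous endothelial cells (adjusted p = 0.403) to 0.24 in T cells (adjusted p = 0.352).

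By lineage, Arntl was lower in CS without overlap in the epithelium, had lower CS means with overlapping values in the endothelium and mesenchyme, and had nearly equal means in immune types. The differences between lineages did not pass the test. The mean over 5 epithelial types was 0.0939, 0.1499, 0.148 and 0.153 in CS mice and 0.398, 0.277, 0.324 and 0.222 in RA mice. These did not overlap (ratio 0.446, exact two-sided permutation p = 0.0286), and 4.29% of genes found in epithelial types were lower there without overlap. Over 5 endothelial types it was 0.0942, 0.278, 0.249 and 0.298 in CS mice and 0.666, 0.433, 0.520 and 0.258 in RA mice (ratio 0.490, exact p = 0.0857). Over 2 fibroblast types the ratio was 0.327 (exact p = 0.0857). Over 5 immune types, Arntl was at 0.650, 0.745, 0.586 and 0.709 in CS mice and at 0.644, 0.777, 0.656 and 0.635 in RA mice, a ratio of 0.992 (exact p = 0.857). Set against each other on the log2 scale, the Arntl difference of endothelial types was lower than that of immune types by an estimate of -0.24 (adjusted p = 0.313 from limma, 0.00673% of genes called). The estimate was -0.19 for epithelial minus immune types (adjusted p = 0.207, 0.0135% called) and 0.32 for immune minus mesenchymal types (adjusted p = 0.257, 0.303% called). For Npas2 it was -0.16 for epithelial minus immune types (adjusted p = 0.117) and 0.15 for endothelial minus epithelial types (adjusted p = 0.134, 0.182% called). Npas2 was near 0 in the endothelium and immune types, which keeps its differences small on this scale. Its ratios were 0.536 in the epithelium, 0.504 in the endothelium, 0.580 in immune types and 0.291 in the mesenchyme. The groups overlapped in all of these but the epithelium (exact two-sided permutation p = 0.257 in immune types). In no immune type did Npas2 pass the filter. Of 30 limma tests over the 5 genes and 6 pairs of lineages none was called, and 8 had an unadjusted p under 0.05, against 14.1% over all genes and pairs. The pair with the most genes called was the epithelium and mesenchyme, with 0.66%.

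The other members followed the same order only in part. Nfil3 did not overlap in the epithelium (0.0720 to 0.120 in CS, 0.123 to 0.196 in RA, exact two-sided permutation p = 0.0286), and in immune types its mean was 1.41 in CS and 1.33 in RA. Npas2 did not overlap in the epithelium either (0.183 to 0.258 in CS, 0.295 to 0.517 in RA, exact p = 0.0286). That difference rests in large part on goblet cells, at 0.240 in CS and 0.972 in RA. Clock was lower in epithelial types (ratio 0.840) and higher in immune types (ratio 1.18), with an epithelial against immune difference of -0.16 (adjusted p = 0.246 from limma). Cry1 in immune types had a ratio of 1.01.

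**Figure D4:**
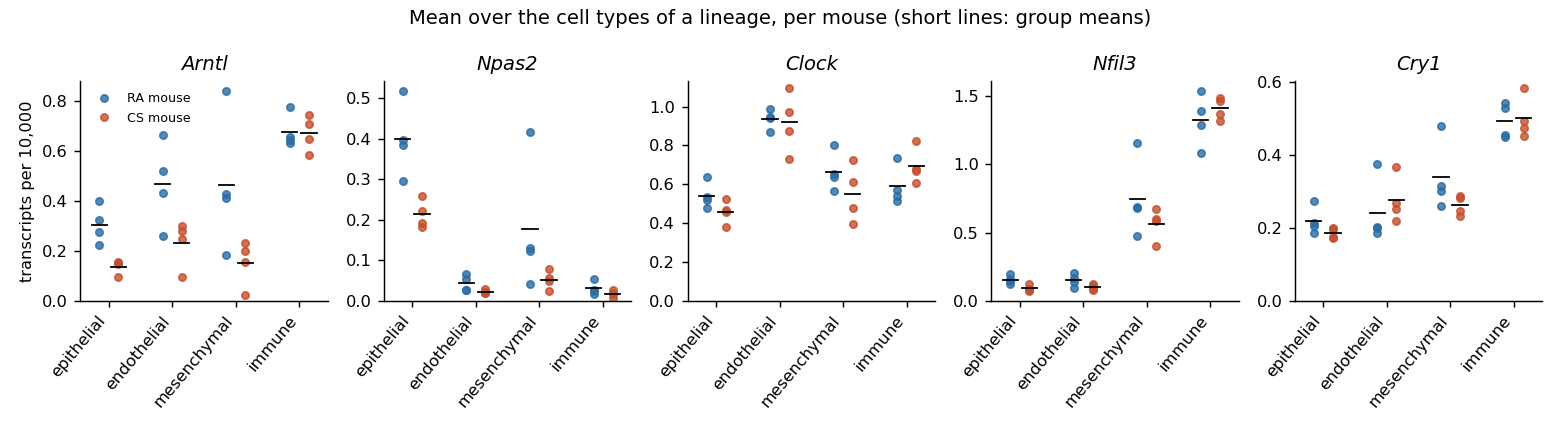
Transcripts per 10,000 of the 5 genes (y axes, from 0) in each mouse, averaged over the cell types of a lineage (x axes: 5 epithelial, 5 endothelial, 2 mesenchymal and 5 immune types), RA in blue, CS in red, short lines for group means. Arntl, Npas2 and Nfil3 lie apart between groups in the epithelium, and all 5 genes mix in immune types.

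Of 12 measured genes of the core loop and its output, whose transcripts mostly peak in the other phase, 3 were called higher in CS by limma over the mean of 17 types and none was called lower. Of all genes, 1.51% were called higher there. All 12 log2 estimates were higher. Dbp, a D-box activator and a common readout of the clock, was at 1.45, 1.08, 0.809 and 0.609 in CS mice and at 0.142, 0.335, 0.367 and 0.524 in RA mice. It rose by 0.48 on the log2 scale (adjusted p = 0.0430), Tef, its paralogue, by 0.25 (adjusted p = 0.0406) and the repressor Nr1d2 by 0.26 (adjusted p = 0.0456). Nr1d1 had a ratio of 1.78 over the mean of types (adjusted p = 0.0656) and was called higher in AT1 cells (2.30, 0.0203), aerocytes (3.17, 0.0370) and gCap cells (2.41, 0.0312). Over the mean of types, Per2 had a ratio of 1.37 (adjusted p = 0.0840) and Per1 of 1.18 (adjusted p = 0.300). Other genes passed in single types only: the D-box activator Hlf in adventitial fibroblasts (ratio 2.43, adjusted p = 0.0370), Per2 in ciliated cells (1.31, 0.0427), and the repressors Bhlhe40 (4.74, 0.00137) and Bhlhe41 (3.35, 0.00263) in AT1 cells, with Bhlhe40 also in alveolar fibroblasts (2.17, 0.0304). Bhlhe40 had a ratio of 0.938 over the mean of all 17 types and of 0.747 over the immune types (exact two-sided permutation p = 0.0571). Of the 3 ROR activators none was called over the mean of types, with Rora at a ratio of 1.32 (adjusted p = 0.0567) and called higher in 4 single types, among them goblet and ciliated cells. Of 4 kinases and ligases tested, Btrc, a ligase subunit, was called higher (ratio 1.32, adjusted p = 0.0353). Within types, Dbp was called higher in 6 of 14 types in which it was tested: AT1 (ratio 5.62, against 0.229 for Arntl), club (2.84 and 0.307), goblet (6.29 and 0.432), arterial (4.05 and 0.373), gCap (5.19 and 0.423) and adventitial fibroblasts (3.44 and 0.357). Over all genes and types, 0.712% of tests were called higher in CS. Dbp was higher with an unadjusted limma p under 0.05 in all 14 types. Among them were lymphatic endothelial and mesothelial cells, where Arntl had ratios of 0.932 and 0.668 with overlapping groups. In immune types Dbp was low and passed the filter in none of them. Its groups did not overlap over these types (mean 0.0995 in CS and 0.0503 in RA), nor did those of Nr1d2 (0.336 and 0.186) and Tef (0.181 and 0.138). The groups of Arntl and of the other core loop and output genes overlapped there. The share of all genes without overlap over the immune types was not counted. Per3 was not analysed here.

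The mice at the ends of the Arntl range lay at the opposite ends of the Dbp range, but the order in between was not the same. RA mouse F1 had the highest Arntl (0.601) and Npas2 (0.197) and the lowest Dbp (0.142), and CS mouse C2 the lowest Arntl (0.249) and the highest Dbp (1.45). RA mouse M3, which met the CS mice in Arntl, had the highest Dbp of its group (0.524), and CS mouse D5 the lowest of its own (0.609). CS mouse C5 did not follow this order, with the highest Arntl of the CS mice (0.368) beside a high Dbp (1.08). Among RA mice the median depth rose in the order of Dbp, from 4,254 UMIs per cell in F1 to 6,473 in M3, while the number of cells fell from 6,371 to 2,553. In CS mice the median depth was 6,316 in C2, 5,519 in C5, 4,557 in D2 and 5,028 in D5. C2 and F1 shared lane 1, and D5 and M3 lane 4. The part of depth, cell number or lane in this order was not tested. No correlation is given, since the 8 mice fall into 2 groups.

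**Figure D5:**
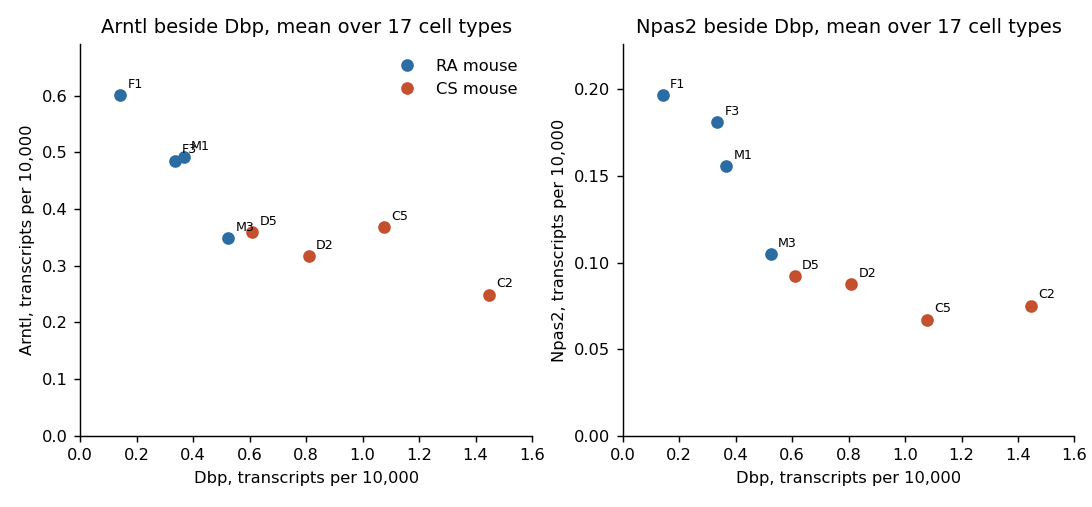
Arntl (left) and Npas2 (right) against Dbp, all as transcripts per 10,000 averaged over 17 cell types, with 1 point per mouse, RA in blue and CS in red. RA mice run from F1 (Dbp 0.142, Arntl 0.601) to M3 (Dbp 0.524, Arntl 0.349), next to the CS mice, of which C2 lies farthest (Dbp 1.45, Arntl 0.249).

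Other genes moved with the groups as well. The summed level of 6 glucocorticoid response genes was 9.61 to 11.8 in CS and 12.9 to 16.7 in RA, with 6 of 6 estimates lower in CS and 2 called. That of 16 genes induced by tissue digestion was 84.3 to 100.1 in CS and 94.3 to 119.1 in RA, with 13 of 16 estimates lower and 2 called. Over the mean of types, 0.942% of all genes were called lower in CS and 6.24% were lower without overlap. The median log2 difference of all genes was 0.01. No such share was counted for summed levels. The part of both lists in the values of the 5 clock genes was not tested.

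The cell types with the highest levels differed among Arntl, Npas2, Clock and Nfil3, while Arntl and Cry1 shared T cells as their first type. Over all mice, Arntl was highest in T cells (1.52 ± 0.200 transcripts per 10,000, SD, n = 8), B cells (1.34 ± 0.170) and NK and cytotoxic T cells (1.04 ± 0.354, n = 7), and neither T and B cells nor B and NK and cytotoxic T cells, the neighbours in this order, differed beyond the spread of the mice. From NK and cytotoxic T cells to the next type, venous endothelial cells (0.550), the step was found in 7 of 7 mice (exact two-sided sign-flip p = 0.0156). Venous endothelial cells held this place through RA mice (0.792), and in CS mice (0.308) they lay below non-classical monocytes (0.427) and lymphatic endothelial cells (0.366). At the other end, Arntl was lower in AT1 cells (0.108) than in club cells (0.180) in 8 of 8 mice, and lower still in cells labelled NG (0.0292, 8 of 8 mice; exact p = 0.00781 for both steps). Of 21 neighbouring pairs, 3 differed and 18 did not, where differing means, here and below, an exact sign-flip p under 0.05, unadjusted for the number of pairs.

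Npas2 over all mice was highest in goblet cells (0.606 ± 0.492, n = 8) and ciliated cells (0.545 ± 0.0344). Goblet cells led in RA mice (0.972 against 0.529 in ciliated cells) and ciliated cells in CS mice (0.561 against 0.240 in goblet cells). Peribronchial fibroblasts (0.307 ± 0.475, n = 6), club cells (0.283) and mesothelial cells (0.226) followed. The fibroblasts held this place through RA mice (0.522), and in CS mice (0.0911) they lay below club (0.213) and mesothelial cells (0.125). B cells and monocytes were at 0.00521 or less. Of its 21 neighbouring pairs 1 differed, mesothelial cells above adventitial fibroblasts (exact sign-flip p = 0.0469, unadjusted). Among 21 pairs, 1 such p can arise by chance. Clock ranged from 1.09 ± 0.137 in aerocytes, the capillary cells of gas exchange, to 0.383 in AT2 cells, with only cells labelled NG (0.0794) and mast cells (0.0508) below. Nfil3 was highest in myeloid types, with 4.81 ± 0.648 in cells labelled mast cells (n = 7), 2.56 ± 0.467 in classical monocytes and 2.48 ± 0.527 in cells labelled NG, and lowest in aerocytes (0.0295). Below non-classical monocytes (1.93), peribronchial fibroblasts (1.44), alveolar macrophages (1.11) and NK and cytotoxic T cells (1.05) followed. Of its neighbouring pairs 6 differed. Cry1 ranged from 0.603 ± 0.120 in T cells to 0.0871 in AT1 cells, and none of its 21 neighbouring pairs differed beyond the spread of the mice.

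Across the 17 types, the genes with the level most like that of each member, among 14,427 genes, were as follows, given as a description with no test, since the types share the same 8 libraries. Arntl was nearest to Gm27241, Nob1 and Pacsin1 (Pearson r of log2 levels 0.93 for each), and the genes near Npas2 included Adam28 and Gm42693 (0.97 and 0.96). Clock was nearest to U2surp, Cog3 and Fxr1 (0.95, 0.95 and 0.94), Nfil3 to Myo1f, Slc35b2 and Relt (0.96, 0.94 and 0.93) and Cry1 to Sf3b6, Akna and Sik2 (0.88, 0.88 and 0.86). Among the members themselves r ran from -0.47 (Clock and Nfil3) to 0.58 (Nfil3 and Cry1), all lower than the values above.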

How the data were processed

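Single-cell libraries (10x 3′ version 3) of 4 CS and 4 RA mice were analysed from the matrix and cell annotation. Per the labels and the study's methods, the authors aligned reads with STAR 2.7.3a (STARsolo) to GRCm38.p6 with a GENCODE annotation, counted spliced and unspliced UMIs together, removed free RNA with SoupX, and named cell types and multiplets. The matrix the authors deposited is called normalized but holds expected counts: UMIs after removal of free RNA, not scaled, of which 1.28% are whole within 1e-06. The authors also deposited the percent of mitochondrial transcripts per cell. No count model was therefore used.

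Each cell was scaled to 10,000 and averaged per mouse and cell type (at least 20 cells). Cells labelled multiplet (1,025) or cell cycle (7) were left out, and no further doublet caller was run. Genes found in at least 10% of cells of either group were tested on log2(mean + 1) with limma 3.58.1 (R 4.3.3; lmFit, eBayes with trend), CS against RA without covariates, Benjamini-Hochberg over all genes, threshold 0.05. The 5 genes and a fixed list of 21 other clock genes, of which Per3 was not analysed here, were named in every comparison, with values for those that passed in the mean or in 1 type and for Dbp, Per1, Per2, Nr1d1 and Nr1d2 always, and the 3 most alike genes per member, of which 1 is not reported here. The members and lists were chosen with earlier results of these data known. Where 1 value per mouse was compared, an exact two-sided permutation over the 70 assignments of mice was used (smallest p 0.0286). Neighbouring levels were compared by exact sign flips within mice, unadjusted for the number of pairs. Scripts were tested on simulated data. Promoter windows are from RefSeq. Other settings were the pseudocount, filters, summed counts, minimum cells, quantile normalization, sex, lane block, mitochondrial share, weighting and leaving out mice. Depth per mouse was 31,094,695 to 52,753,531 UMIs. UMI counts are given for some of the values that rest on few transcripts, and no interval was computed, so the spread between mice holds counting error too. The 2 mice of a lane share a sequencing lane but no animal: correlations of their deviations were -0.25 to 0.29, above 0.1 in 1 of 4 lanes, so lanes were not treated as pairs.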

Additional observations from a re-analysis of the deposited data

Results flagged for a closer look

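Groups of 4 mice were examined for the 5 genes and, averaged over the types only, for Dbp, Per1, Per2, Nr1d1 and Nr1d2. In 18 of 164 groups, all of them of the 5 genes, 1 mouse stood apart from the other 3, with a gap past the critical value of Dixon's test. Chance alone flags about 1 group in 20. Values are transcripts per 10,000, with the other 3 mice in parentheses.

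CS mouse C2 was low in Arntl in venous endothelial cells, at 0.0597 (0.373 to 0.424), and in alveolar fibroblasts, at 0.0235 (0.170 to 0.194), where the lowest count of a CS mouse was 0.991 UMI in 1 cell, and high in Cry1 in AT1 cells, at 0.163 (0.0504 to 0.0654). CS mouse C5 was low in Arntl in non-classical monocytes, at 0.316 (0.461 to 0.467), and high in Cry1 in lymphatic endothelial cells, at 0.764 (0.219 to 0.310).

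CS mouse D5 was high in Clock in AT1 cells, at 0.768 (0.537 to 0.559), and in alveolar macrophages, at 1.31 (0.517 to 0.607). In NK and cytotoxic T cells it was low in Nfil3, at 0.733 (1.21 to 1.22), and high in Cry1, at 0.524 (0.278 to 0.283). CS mouse D2 was high in Cry1 in ciliated cells, at 0.589 (0.452 to 0.473).

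RA mouse F1 stood apart in Cry1 in 5 types. It was high in goblet cells at 0.248 (0.175 to 0.187), gCap cells at 0.433 (0.182 to 0.196), alveolar fibroblasts at 0.599 (0.293 to 0.341) and mesothelial cells at 0.316 (0.165 to 0.183), and low in T cells at 0.318 (0.594 to 0.618). RA mouse M3 was high in Clock in arterial endothelial cells, at 1.32 (0.673 to 0.756), and low in Cry1 in classical monocytes, at 0.433 (0.619 to 0.647). RA mouse M1 was low in Nfil3 averaged over the types, at 0.556 (0.572 to 0.573).

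For 2 genes, CS lay above RA without overlap in 1 type and below RA without overlap in others. The share of all genes with such a pattern was not counted. In single types, 3.74% of genes in classical monocytes and 5.96% in T cells were higher in CS without overlap. Lower without overlap were 6.65% in ciliated cells, 1.28% in goblet cells and 6.87% in peribronchial fibroblasts. Nfil3 was higher in CS in classical monocytes (log2 difference 0.28) and lower in ciliated (-0.12) and goblet cells (-0.10). Cry1 was higher in CS in T cells (0.13) and lower in goblet cells (-0.18) and peribronchial fibroblasts (-0.13). In the latter it passed the filter through RA alone, on 3 mice a group and 1.97 to 4.96 UMIs in a CS mouse. The difference between these pairs of types was not tested. Against all other types together, the departure of Nfil3 in classical monocytes was 0.37 (limma adjusted p = 0.357).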

How the results depend on the processing

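Arntl kept a lower estimate in CS under 25 of 25 alternatives and Npas2 under 24 of 24, with p from 0.0519 to 0.924 and from 0.0286 (the exact test, unadjusted) to 0.343. The number of genes called over the mean of types was 197 with a pseudocount of 0.1, 3 without a filter, 897 with genes found in 25% of cells, 688 with summed counts, 570 with at least 50 cells, 615 with sex by transcripts as a term, 749 with lineages weighted equally, 10 with all cells averaged, 0 with immune types only (limma, of 9,235 tested), 1 and 21 with the libraries of female and male transcripts only, and 5 (without C2) to 451 (without M1) when 1 mouse was left out. With the lane as replicate block it was 6. The log2 difference of Npas2 passed at -0.083 with the 25% filter, labelled sex (but not sex by transcripts) or the exact test, and at -0.11 without immune types. That of Nfil3 passed at -0.060 in the exact test, which is unadjusted. Clock reversed to 0.018 without C2, 0.019 with all cells averaged, 0.082 in immune types and 0.070 in libraries with male transcripts (-0.051 to 0.018 leaving out mice). Cry1 reversed to 0.014 without F1, 0.0017 in immune types and 0.016 in libraries with male transcripts (-0.020 to 0.014 leaving out mice), and Nfil3 to 0.0010 in immune types. Types called for Arntl were 2 with pseudocount 0.1, either sex term or summed counts (ciliated and gCap cells, no longer AT1 cells). They were 1 with the 25% filter (club cells, with Arntl in AT1 cells no longer tested) and 0 without a filter. For Npas2 they were 0 without a filter, with either sex term or without cells over 5% mitochondrial. With 50 cells they were 0 because goblet cells, at 23 to 137 per mouse, were no longer tested. For Nfil3 they were 0 without a filter, with labelled sex or in the lane block, and for Cry1 1 with pseudocount 0.1 or the 25% filter. Leaving out mice gave 0 to 2 for Arntl and 0 to 1 for Npas2, Nfil3 and Cry1. Departures called were 1 with pseudocount 0.1, summed counts or quantile normalization, 2 with the 25% filter, and 0 to 2 leaving out mice. Apart from genes and types no longer tested, the cause of these changes was not tested. Another filter also changes which genes are tested and how many. Of the calls of the 5 genes within types, the lane block ended 1, that of Nfil3 in ciliated cells. Over the mean of types it gave a limma adjusted p of 0.134 for Arntl and 0.109 for Npas2. Whether Dbp, Tef, Nr1d2 and Btrc were among the 6 genes still called with it was not examined. The 2 mice of a lane share only that lane: their deviations correlated above 0.1 in 1 of 4 lanes, and 1 of 4 CS mice correlated best with its own lane. Subsets by immune type or sex transcripts were chosen after seeing the data. Npas2 in immune types alone gave no value, since it passed no filter there. Low counts limit the precision: the CS mouse with the fewest held under 10 UMIs of Arntl in 11 of 22 types, of Npas2 in 18, of Nfil3 in 10, of Cry1 in 7 and of Clock in 4. For the RA mouse with the fewest it was 8 types for Arntl, 18 for Npas2, 6 for Nfil3, 8 for Cry1 and 4 for Clock.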
